A study of Mus musculus with 6 samples.

Results

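The Ifit genes encode the interferon-induced proteins with tetratricopeptide repeats, and the members described here are Ifit1, Ifit2, Ifit3 and Ifit3b of the mouse. They were chosen by gene symbol: each transcript of the deposited expression values was matched to a gene by its Ensembl identifier, and every transcript of these genes was kept. This gave 4 of 11835 genes and 5 of 24023 transcripts. The RNA came from C2C12 cells, an established mouse myoblast line, grown to near confluence and moved to low-serum medium with horse serum so that they differentiate. In 3 libraries the cells had received NC siRNA, a control siRNA (siNC), and in the other 3 they had received CNN3 siRNA (siCNN3), which is directed against Cnn3, the gene of the actin-binding protein calponin 3. Which of the study's CNN3 siRNAs the sequenced cells received is not given in the sources used here. The paper describes the sequenced cells as differentiating myoblasts. For differentiation it repeated the transfection and states a harvest time, but does not tie either to the sequenced cultures by name. All 6 libraries thus share the cell line, the medium and an siRNA transfection, and cells without transfection were not analysed here. The cells are labelled as mouse myotube, and the labels do not say whether replicates are separate cultures, so p-values measure only the spread between these libraries.

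Ifit genes are nearly silent in most resting cells and are switched on by type I interferon, which acts through transcription factors of the STAT and IRF families, or directly by IRF factors when viral RNA is sensed. The proteins are built from tetratricopeptide repeats, helical units that bind RNA or other proteins. IFIT1 holds the end of capped RNA that lacks ribose methylation next to the cap, as many viral RNAs do, and keeps it from being translated. In human cells IFIT2 and IFIT3 form complexes with each other and with IFIT1, and mouse Ifit3b is a close copy of Ifit3. IFIT proteins can also bind subunits of the translation initiation factor eIF3.

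In the mouse genome build GRCm38 the 4 genes lie on the + strand of chromosome 19 within 99.3 kb, in the order Ifit2 (34550694 to 34576419), Ifit3 (34583531 to 34588731), Ifit3b (34607970 to 34613401) and Ifit1 (34640871 to 34650009). Ifit1, Ifit3 and Ifit3b each had 1 transcript, with 2 exons, and only 5 coding nucleotides stand in the first exon. Ifit2 had 2 transcripts, of which Ifit2-201 has 3 exons and 3818 nucleotides with 1405 of its 1410 coding nucleotides in exon 3. The genes Ifit1bl1 and Ifit1bl2, further Ifit relatives that are not members, lie inside the same span on the other strand.

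Promoter sequences from RefSeq (GRCm38.p6), 250 bases before to 50 bases after each start, matched all 4 members, with 5 promoters. The core of the interferon-stimulated response element, the site that STAT and IRF factors read, was searched on both strands as the letters GAAA, any 2 bases and GAAA again, which on the other strand read TTTC, any 2 bases and TTTC. It was found in 1131 of 32851 promoters (3.44%), and in 3 of the 5 member promoters, those of Ifit1, Ifit3 and Ifit3b, with a pair of matches in each. The matches are shown to give their place, and no other motif was searched for. The core is not particular to the members. It also stood in promoters of Ifit1bl1 and Ifit1bl2, and in 4 of the 6 OAS and RNase L genes, described below, that had promoters. All 30-base stretches are given 5′ to 3′ on the + strand of chromosome 19, upstream of the RefSeq start and outside the gene's exons, with the match, which is on the - strand, in capitals.
Ifit3 (chr19:34583363-34583392): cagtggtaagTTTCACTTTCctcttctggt
Ifit3 (chr19:34583397-34583426): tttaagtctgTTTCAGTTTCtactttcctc
Ifit3b (chr19:34607759-34607788): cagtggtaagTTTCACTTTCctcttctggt
Ifit3b (chr19:34607793-34607822): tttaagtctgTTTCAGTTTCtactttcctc
Ifit1 (chr19:34640775-34640804): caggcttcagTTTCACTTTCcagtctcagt
Ifit1 (chr19:34640794-34640823): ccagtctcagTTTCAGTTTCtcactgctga

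The stretches of Ifit3 and Ifit3b are the same letter for letter, and of 260 aligned promoter bases of the pair 258 were identical (99.2%). Their matches begin 156 and 122 bases before the start of Ifit3 and 188 and 154 bases before that of Ifit3b. Those of Ifit1 begin 104 and 85 bases before its start and overlap in their flanks, and the same stretch is upstream of Ifit1bl2, which runs the other way. The longer form, with CT directly after it, stood in 0.271% of promoters, again in those 3 members, and in 3 of the 6 OAS and RNase L genes. Neither window of Ifit2 held the core, which says only that these letters are not in these windows. A match is a description of sequence and not a measured binding site.

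The coding sequences of Ifit3 and Ifit3b, 1209 nucleotides each, were identical at 1198 positions (99.1%) and differed at 11, with an identical run of 329 nucleotides. All other pairs of members were 59.1% to 67.1% identical over their aligned coding bases. A group of 3 differences stands in exon 2, at coding bases 247 to 276 counted from the A of the start codon, and is shown because a read within the coding sequence can be assigned to one gene or the other only by such bases. The differing bases are in capitals.
Ifit3: tcagagcacaaTgatcaaTcagaaattcgT
Ifit3b: tcagagcacaaAgatcaaGcagaaattcgC

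Of all 50-base stretches of the Ifit3 transcript, 51.2% also occur in that of Ifit3b, and 44.5% of those of Ifit3b occur in Ifit3. At 150 bases the shares were 18.5% and 16.0%. Ifit1 shared 7.13% of its 50-base stretches with Ifit1bl1 or Ifit1bl2, and Ifit2 shared 0 of 3769. How the authors' program divided fragments that fit both genes is not given in the sources used here. The values of Ifit3 and Ifit3b are therefore uncertain as separate values, and their sum is given too.

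The values are FPKM, fragment numbers scaled by transcript length and by the total of mapped fragments, which are per length and so can be compared between genes of a library. Read numbers are not given, so the depth is unknown and no counting error can be stated. Over the libraries the summed FPKM was 322621 to 355591. Values of 3 libraries are given in the order of replicates 1, 2 and 3 throughout. For Cnn3 they were 62.8, 61.4 and 62.8 FPKM with NC siRNA against 19.04, 39.2 and 25.6 FPKM with CNN3 siRNA. The siCNN3 libraries were all below the siNC libraries, but the log2 fold change of -1.19 did not pass the test used below (adjusted p = 0.0669, limma with Benjamini-Hochberg adjustment). Of the myotube markers Myod1, Myog, Des, Acta1, Myh3, Tnnt1, Tnnt3, Tnnc2, Mymk, Myl1 and Ckm, all 11 had values, at a sum of 167.6 to 193.8 FPKM in siNC and 101.0 to 121.5 FPKM in siCNN3, and 6 of the 10 tested were called lower, beside 0.336% of all tested genes. Ckm, the creatine kinase of mature muscle, was at 0.414 to 0.911 FPKM in siNC and at 0 to 0.0760 FPKM in siCNN3. These markers moved with the Ifit genes in the opposite direction, and their part in the results was not tested.

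All 4 Ifit genes were higher in every siCNN3 library than in any siNC library, and Ifit2, Ifit3 and Ifit3b passed the test. The ratio of the group means lay between 13.1 for Ifit2 and 35.1 for Ifit3b. It turned on siNC replicate 2, without which it was 75.5 for Ifit1 in place of 17.2, 137.2 for Ifit3 in place of 28.0 and 169.5 for Ifit3b (computed after the data were seen). Within siNC, however, Ifit1, Ifit3 and Ifit3b varied over a range of 33.1 to 59.8 times between the lowest and the highest library. The test was a linear model of log2(FPKM + 1) across the 11593 genes that averaged 0.5 FPKM or more (limma with a mean-variance trend), and genes with a Benjamini-Hochberg adjusted p below 0.05 were called. Fold changes on this scale understate the change of low genes. In bulk RNA, a change in the number of cells that express a gene and a change of RNA per cell cannot be told apart.

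Ifit1, the member that binds the RNA cap (ENSMUSG00000034459.8), stood at 0.763, 45.7 and 7.41 FPKM in siNC, against 427.6, 391.4 and 106.5 FPKM in siCNN3. siNC replicate 2 stood high and siCNN3 replicate 3 low in their groups, and the groups did not overlap, with the lowest siCNN3 library 2.33 times the highest siNC library. The means were 17.9 ± 24.2 FPKM (SD, n = 3) and 308.5 ± 175.9 FPKM (SD, n = 3), and the SD of siNC was larger than its mean. Its log2 fold change, 4.89 (standard error 1.15), was not called (adjusted p = 0.0935, limma). Without siNC replicate 2 it was 6.09 and was called (adjusted p = 0.0338, limma).

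Ifit2 (ENSMUSG00000045932.12), an antiviral member that binds RNA, stood at 9.87, 26.8 and 15.1 FPKM in siNC, against 315.8, 285.1 and 74.8 FPKM in siCNN3. It was the member with the narrowest range in siNC, where its highest library was 2.72 times its lowest, and again siCNN3 replicate 3 was the lowest of its group and above all siNC libraries. The means were 17.2 ± 8.68 FPKM (SD, n = 3) and 225.2 ± 131.2 FPKM (SD, n = 3). Ifit2 rose by 3.49 log2 units (standard error 0.595, adjusted p = 0.0419, limma). Leaving out siCNN3 replicate 3 gave an adjusted p of 0.00488 from limma, and leaving out any other library gave 0.0545 to 0.168.

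Ifit3 (ENSMUSG00000074896.3), whose human counterpart steadies IFIT1 on RNA, stood at 2.49, 87.9 and 11.3 FPKM in siNC, against 1112, 1072 and 660.7 FPKM in siCNN3. Its siCNN3 values lay closer together than those of Ifit1 and Ifit2, and the lowest was 7.51 times the highest siNC value. The means were 33.9 ± 47.0 FPKM (SD, n = 3) and 948.2 ± 249.8 FPKM (SD, n = 3). Ifit3 rose by 5.88 log2 units (standard error 1.05, adjusted p = 0.0491, limma), close to the threshold. It was called without siNC replicate 2 (adjusted p = 0.00688) and not without any other library (adjusted p = 0.0542 to 0.186, limma).

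Ifit3b (ENSMUSG00000062488.9), the near-copy of Ifit3, stood at 0.906, 29.95 and 3.89 FPKM in siNC, against 478.1, 458.8 and 283.2 FPKM in siCNN3. The libraries stood in the same order as for Ifit3, and the lowest siCNN3 value was 9.46 times the highest siNC value. The means were 11.6 ± 16.0 FPKM (SD, n = 3) and 406.7 ± 107.4 FPKM (SD, n = 3). Ifit3b rose by 5.91 log2 units (standard error 0.922, adjusted p = 0.0321, limma). Leaving out siNC replicate 2 kept the call (adjusted p = 0.00614), as did leaving out siCNN3 replicate 3 (0.0383), and leaving out any other library ended it (0.0715 to 0.147, limma). Taken as a single gene, Ifit3 and Ifit3b were at 3.40, 117.9 and 15.2 FPKM in siNC, against 1590, 1531 and 943.9 FPKM in siCNN3, and this sum rose too, by 6.02 log2 units (adjusted p = 0.0478, limma).

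**Figure D1:**
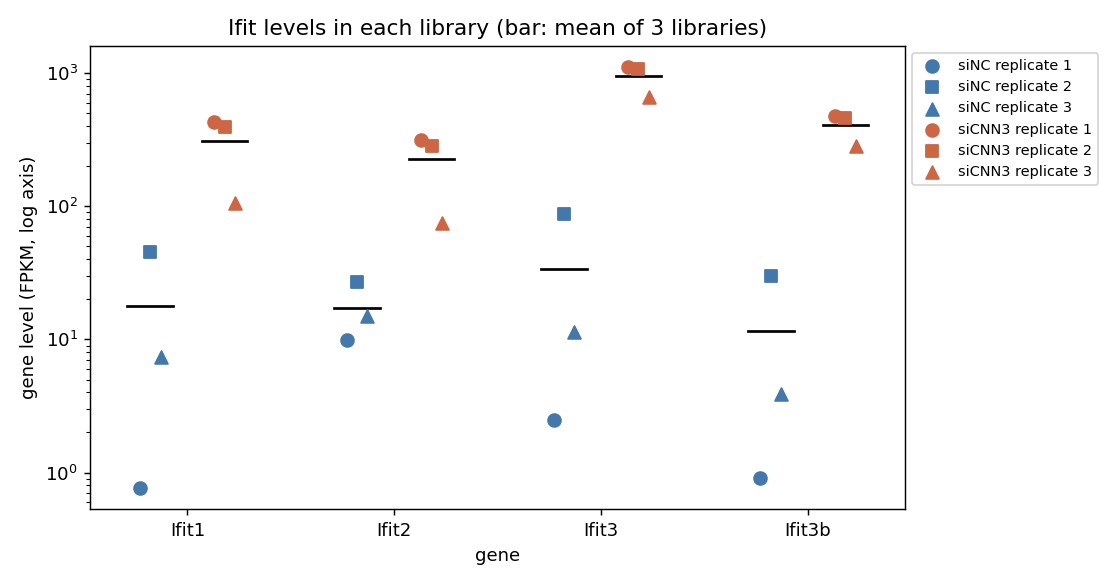
FPKM of Ifit1, Ifit2, Ifit3 and Ifit3b in each of the 6 libraries on a log axis, siNC in blue and siCNN3 in orange, with the marker shape giving the replicate number and the bar the mean of 3 libraries. All siCNN3 points lie above all siNC points of the same gene, siNC replicate 2 is the highest siNC point and siCNN3 replicate 3 the lowest siCNN3 point of each gene.

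Thus 3 of the 4 members were called higher, beside 1.73% of all tested genes called higher. Groups that did not overlap, with siCNN3 above siNC, were found for all 4 members and for 13.8% of all tested genes. An exact permutation test of 3 libraries against 3 gave p = 0.1 for each member, two-sided, the smallest that this design allows. The calls changed with the libraries in the fit: with 1 library left out, between 0 and 3 members were called, 0 of them without siNC replicate 1 or 3 or without siCNN3 replicate 1 or 2. In those 4 fits the genes called higher among all 11593 fell from 200 to 70, 16, 39 and 29, so calls were lost across the whole table, while the log2 fold changes of the members stayed at 3.12 or more. At an unadjusted p below 0.05, limma gave all 4 in each of these fits, beside 9.94% of all tested genes higher with all 6 libraries. With the replicate number as a block 0 members were called (adjusted p = 0.0533 to 0.126, limma), although all 4 had an unadjusted p below 0.05 there too.

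**Figure D2:**
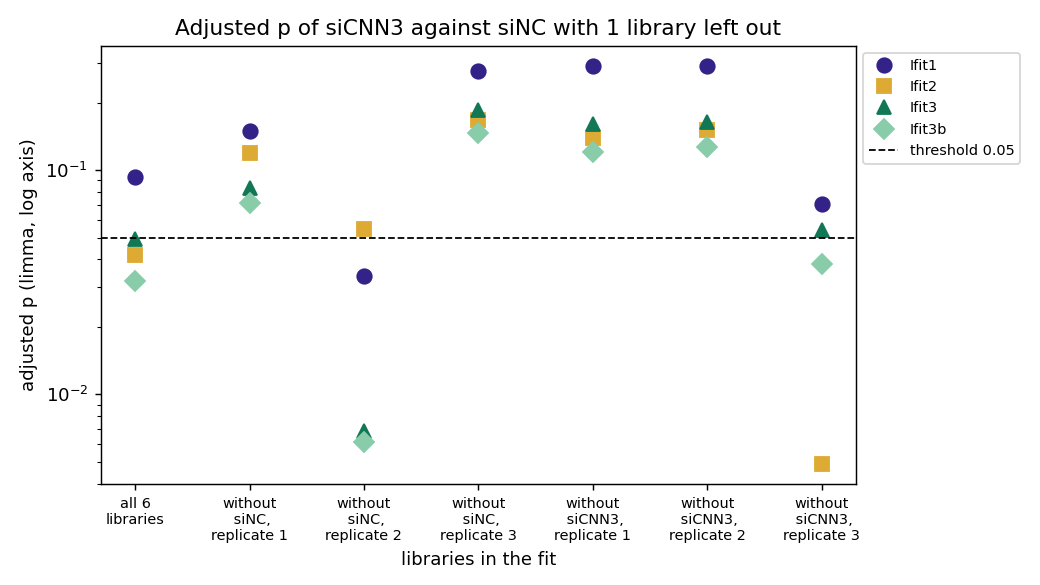
Benjamini-Hochberg adjusted p from limma for Ifit1, Ifit2, Ifit3 and Ifit3b on a log axis, with all 6 libraries and with each library left out in turn, and the threshold of 0.05 as a dashed line. Without siNC replicate 2 the points of Ifit1, Ifit3 and Ifit3b drop below the line, and without siCNN3 replicate 3 those of Ifit2 and Ifit3b lie below it.

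Each listed transcript was also tested alone, in a fit across 21658 transcripts. Of the 5 member transcripts 0 were called, beside 0.462% of all tested transcripts called higher, and 4 were higher at an unadjusted p below 0.05, beside 6.8% of all tested transcripts (limma). For Ifit1, Ifit3 and Ifit3b the transcript is the gene, so only the fit changed, with adjusted p = 0.216 for Ifit1-201, 0.117 for Ifit3-201 and 0.0856 for Ifit3b-201 from limma. Ifit2-201, which holds the full coding sequence, made up a median of 98.0% of the FPKM of Ifit2 and missed the threshold at a log2 fold change of 3.56 (limma, adjusted p = 0.104). The other transcript, Ifit2-202, has 700 nucleotides with 131 coding nucleotides and was at 0.803, 0.814 and 0.863 FPKM in siNC, against 2.03, 2.51 and 0.299 FPKM in siCNN3. Its groups overlapped, since siCNN3 replicate 3 was below every siNC library, and its log2 fold change was 0.39 (adjusted p = 0.761, limma).

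The spread within siNC was wide for this family even beside other genes. On the log2 scale, the distance between the highest and lowest siNC library was 4.73 for Ifit1, 4.67 for Ifit3 and 4.02 for Ifit3b, compared with a median of 0.40 over all tested genes. Ranked by this distance, Ifit1, Ifit3 and Ifit3b were at places 3, 4 and 9 of 11593, while Ifit2, at 1.36, was at place 507. siNC replicate 1 was the lowest and siNC replicate 2 the highest library for all 4 members. The ratio of siNC replicate 2 to siNC replicate 1 was 59.8 for Ifit1, 35.3 for Ifit3, 33.1 for Ifit3b and 2.72 for Ifit2. By the difference of these libraries on the log2 scale, Ifit1 and Ifit3 were first and second of all tested genes, followed by Isg15, the gene of a ubiquitin-like protein made in response to interferon. The median of that difference over all tested genes was 0.17.

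Within siCNN3 the pattern was another. Replicates 1 and 2 were close to each other, at a ratio of 1.04 to 1.11 for the 4 members, and replicate 3 was lower. In replicate 3, Ifit1 was at 26.0% and Ifit2 at 24.9% of the mean of replicates 1 and 2, while Ifit3 and Ifit3b were at 60.5% each. By this fall on the log2 scale Ifit2 was at place 45 and Ifit1 at place 53 of 11593 tested genes, and Ifit3b and Ifit3 were at places 1028 and 1029. Cnn3 was lowest in siCNN3 replicate 1 and highest in siCNN3 replicate 2, so the order of the siCNN3 libraries by Cnn3 was not their order by Ifit genes.

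By level, Ifit3 was among the most abundant transcripts of the siCNN3 libraries, at places 20, 21 and 56 of 11835 genes by summed FPKM, and at places 9430, 651 and 5310 in siNC. Ifit3b stood at places 92 to 190 in siCNN3 and 2269 to 10843 in siNC, Ifit1 at 113 to 522 and 1408 to 11006, and Ifit2 at 166 to 821 and 2540 to 5334. In each siCNN3 library the order of levels from high to low was Ifit3, Ifit3b, Ifit1 and Ifit2. The range of Ifit3 over the siCNN3 libraries did not overlap that of Ifit3b, while those of Ifit3b and Ifit1 and those of Ifit1 and Ifit2 overlapped. In siNC the order differed from library to library and the ranges of all members overlapped. Ifit2 was the highest member in siNC replicates 1 and 3, and the lowest in siNC replicate 2.

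The makeup of the family was followed as the share of each member in the summed FPKM of the 4 genes, which was 14.0, 190.3 and 37.7 FPKM in siNC and 2333, 2207 and 1125 FPKM in siCNN3. Ifit2 made up 70.3%, 14.1% and 40.0% of it in siNC and 13.5%, 12.9% and 6.65% in siCNN3. The siCNN3 shares of Ifit2 were all below those of siNC, although siNC replicate 2 was within 1 percentage point of siCNN3 replicate 1. Ifit3 made up 17.8%, 46.2% and 30.1% in siNC and 47.7%, 48.6% and 58.7% in siCNN3, and Ifit3b 6.46%, 15.7% and 10.3% against 20.5%, 20.8% and 25.2%. The mean share of Ifit2 differed by -30.4 percentage points, that of Ifit3 by 20.3 and that of Ifit3b by 11.3. Without siNC replicate 1 the difference was -16.0 percentage points for Ifit2 and 13.5 for Ifit3, and without siNC replicate 2 it was -44.1 and 27.7. Each of these differences had p = 0.1 by the exact two-sided permutation test, the smallest possible with 3 libraries a group, and 0.133 after Benjamini-Hochberg adjustment over the 4 members. The share of Ifit1 was 5.44%, 24.0% and 19.6% in siNC and 18.3%, 17.7% and 9.46% in siCNN3, and its groups overlapped (exact p = 0.8).

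**Figure D3:**
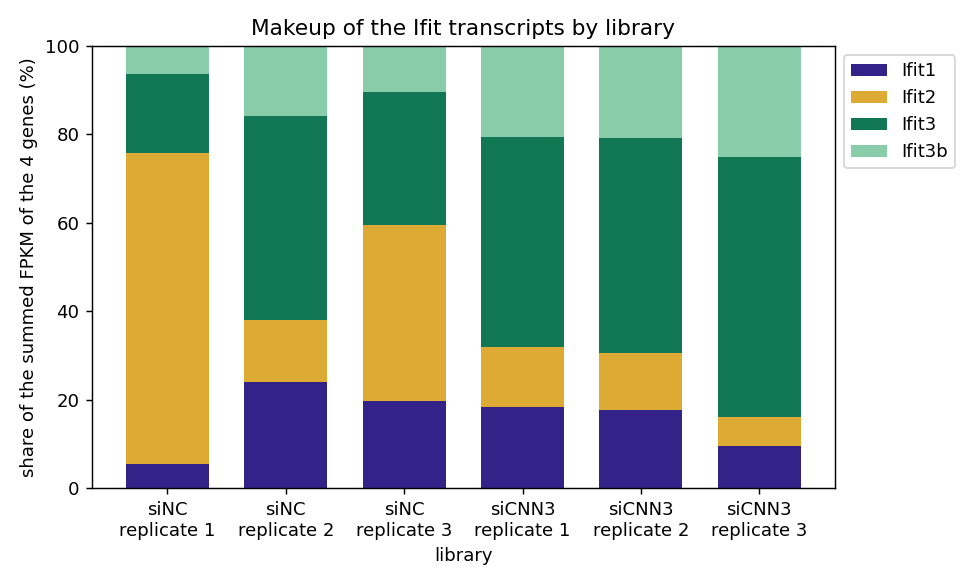
Share in percent of Ifit1, Ifit2, Ifit3 and Ifit3b in the summed FPKM of the 4 genes, with 1 bar per library and no error bars. Ifit2 takes 70.3% in siNC replicate 1 and 6.65% in siCNN3 replicate 3, and the bar of siNC replicate 2, the siNC library with the highest sum, is closer to the siCNN3 bars than those of the other siNC libraries.

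Whether members changed to a different extent was tested on the difference between them in each library on the log2(FPKM + 1) scale, for 6 pairs. The change of Ifit2 was smaller than that of Ifit3 by 2.40 and than that of Ifit3b by 2.42 in log2 units, and the libraries of the groups did not overlap in this difference. The change of Ifit1 was smaller than that of Ifit3 by 0.994 and than that of Ifit3b by 1.02, again without overlap. Without siCNN3 replicate 3 these last differences shrank to -0.59 and -0.62, with Ifit1 still the smaller. The groups nearly touched for Ifit1 minus Ifit3b, at -0.112 in siNC replicate 1 and -0.161 in siCNN3 replicate 1. In siNC replicate 1 both of these genes were under the pseudocount of 1. For Ifit2 minus Ifit3 they were also close, at -1.68 in siNC replicate 2 and -1.81 in siCNN3 replicate 1. The 4 pairs without overlap each had an exact two-sided permutation p of 0.1, the smallest possible, and 0.15 after Benjamini-Hochberg adjustment over the 6 pairs. For Ifit1 against Ifit2 the difference was 1.40 and the groups overlapped (exact p = 0.4), with the siNC libraries spread from -2.62 to 0.75 and the siCNN3 libraries from 0.44 to 0.50. Leaving out siNC replicate 1 gave 0.56, and leaving out siNC replicate 2 gave 2.24.

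Ifit3 and Ifit3b changed by nearly the same amount on that scale, with a difference of -0.02 (exact permutation p = 1). The pseudocount weighs on the low siNC values of Ifit3b, and the plain ratio was looked at after the values were seen. Ifit3b was at 36.3%, 34.1% and 34.4% of the FPKM of Ifit3 in siNC and at 43.0%, 42.8% and 42.9% in siCNN3. The mean ratio was 34.9% ± 1.22 (SD, n = 3) in siNC and 42.9% ± 0.0990 (SD, n = 3) in siCNN3, without overlap (exact permutation p = 0.1). Over all 6 libraries the ratio stayed between 34.1% and 43.0% while Ifit3 ran from 2.49 to 1112 FPKM. Both values come from sequences that share much of their length, as shown above, so they are not independent measurements.

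Over the 6 libraries, the Pearson correlation of log2(FPKM + 1) between members lay between 0.940 for Ifit2 with Ifit3 and 0.998 for Ifit3 with Ifit3b. The points share their library and include the difference between the groups, so this is a description only. The 4 tested genes outside the family whose values followed the mean of the members most closely were Usp18 (0.9997), Dhx58 (0.9992), Tfap4 (0.9986) and Ccdc59 (0.998). Usp18, a protease that removes ISG15 and damps the interferon receptor, was at 0.412, 17.3 and 2.91 FPKM in siNC, against 170.1, 167.2 and 66.8 FPKM in siCNN3, with the libraries in the same order as for the Ifit genes. Its log2 fold change of 4.74 was not called (adjusted p = 0.0525, limma). Tfap4, a transcription factor gene, was at 3.02, 4.96 and 3.79 FPKM in siNC, against 7.94, 7.47 and 6.39 FPKM in siCNN3, a much smaller difference that was not called (adjusted p = 0.106, limma). Ccdc59 was at 19.1 to 23.6 FPKM in siNC and at 25.9 to 27.9 FPKM in siCNN3, and its log2 fold change of 0.35 was not called (adjusted p = 0.234, limma).

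The genes that sense foreign RNA or DNA and that make, receive or pass on the interferon signal were followed as a list of 30, all tested. Of these, 6 rose and 0 fell by limma, or 20.0% called higher beside 1.73% of all tested genes. The median log2 fold change of the list was 0.58, compared with 0.03 over all tested genes and 5.39 over the 4 Ifit genes. At an unadjusted p below 0.05, 15 were higher and 1 was lower (limma), beside 9.94% and 6.14% of all tested genes. With 1 library left out, between 1 and 10 of the list were called higher, 1 of them without siNC replicate 3 or siCNN3 replicate 1 or 2, 3 without siNC replicate 1 and 10 without siNC replicate 2, where 151 of all tested genes were called higher. Except in that fit, the count of the list fell where that over all genes fell.

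Among the sensors, Zbp1, which binds double-stranded nucleic acid, rose by 4.60 (adjusted p = 0.00473, limma), from 2.02, 5.81 and 4.71 FPKM in siNC to 146.3, 137.1 and 80.9 FPKM in siCNN3, and was called in 6 of 6 fits with 1 library left out. Dhx58, Ifih1 and Ddx58, the genes of the cytosolic RNA sensors LGP2, MDA5 and RIG-I, rose by 3.33, 2.80 and 2.26 (adjusted p = 0.0430, 0.0494 and 0.0312, limma), and were called in 2, 2 and 3 of those 6 fits. The adaptor gene Mavs, through which MDA5 and RIG-I signal, was at 9.39 to 10.1 FPKM in siNC and 6.30 to 7.95 FPKM in siCNN3 and was not called (adjusted p = 0.243, limma). Ifnb1, the gene of interferon beta, was listed at 0, 0.225 and 0 FPKM in siNC, against 6.60, 7.78 and 1.01 FPKM in siCNN3 and was not called (adjusted p = 0.0976, limma). A value of 0 in such a file can be a failed estimate, and Ifnb1 passed the filter only through siCNN3. As for the Ifit genes, siCNN3 replicate 3 was the lowest siCNN3 library for Ifnb1.

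Irf7, which drives interferon genes, rose by 4.36 (adjusted p = 0.0305, limma), from 0.796, 11.8 and 5.33 FPKM to 130.8, 121.5 and 76.6 FPKM. siNC replicate 2 was its highest siNC library, as for the Ifit genes, and it was called in 3 of the 6 fits with 1 library left out. Stat2 and Irf9, genes of factors that act at the response element, had log2 fold changes of 2.05 and 1.55 that were not called (adjusted p = 0.0910 and 0.220, limma), although their groups did not overlap. The receptor genes Ifnar1 and Ifnar2 and the kinase genes Jak1 and Tyk2 had log2 fold changes of -0.31, 0.15, 0.13 and -0.16, with overlapping groups, and were not called (adjusted p = 0.381 to 0.748, limma).

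The OAS genes make the activators of RNase L, which cuts RNA, and form a second family that responds to interferon. Of the 9 OAS and RNase L genes tested, 6 averaged under 0.5 FPKM in siNC and passed the filter only through siCNN3, so they could only be called higher. They include 4 of the 6 genes of this list that limma called higher, and the count (0 were called lower, and 1.73% of all tested genes were called higher) is therefore a description. None of the 4 Ifit members passed the filter in this way. The OAS genes called with siNC means above the filter were Oas1a, which rose by 5.02, and Oasl2, which rose by 4.10 (adjusted p = 0.0144 and 0.0321, limma), and they were called in 2 and 3 of the 6 fits with 1 library left out. Ifit1, Ifit2 and Ifit3 were each called in 1 of those fits and Ifit3b in 2. Oas2, Oas3 and Oas1g were called at 4.48, 4.13 and 3.91 log2 units. Oas3, for instance, was at 0.0258, 0.297 and 0.0819 FPKM in siNC, against 26.3, 23.3 and 10.6 FPKM in siCNN3. Its siNC values lie under the pseudocount of 1, which narrows their 11.5-fold range to 0.34 log2 units between replicates 1 and 2, so its error and its p cannot be set beside those of the Ifit genes. Oas1a has the same limit, at 0.129, 2.27 and 0.617 FPKM in siNC. There the pseudocount narrows a 17.5-fold range to 1.53 log2 units between replicates 1 and 2. The count of OAS and RNase L genes called was 1 to 7 with 1 library left out, an alternative added after the data were seen, and was 1 without siNC replicate 3 and 7 without siCNN3 replicate 3. These are also the fits with the fewest and the most genes called higher in the whole table, 16 and 444. The families share all libraries, so their values stand side by side here with no test of a difference.

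**Figure D4:**
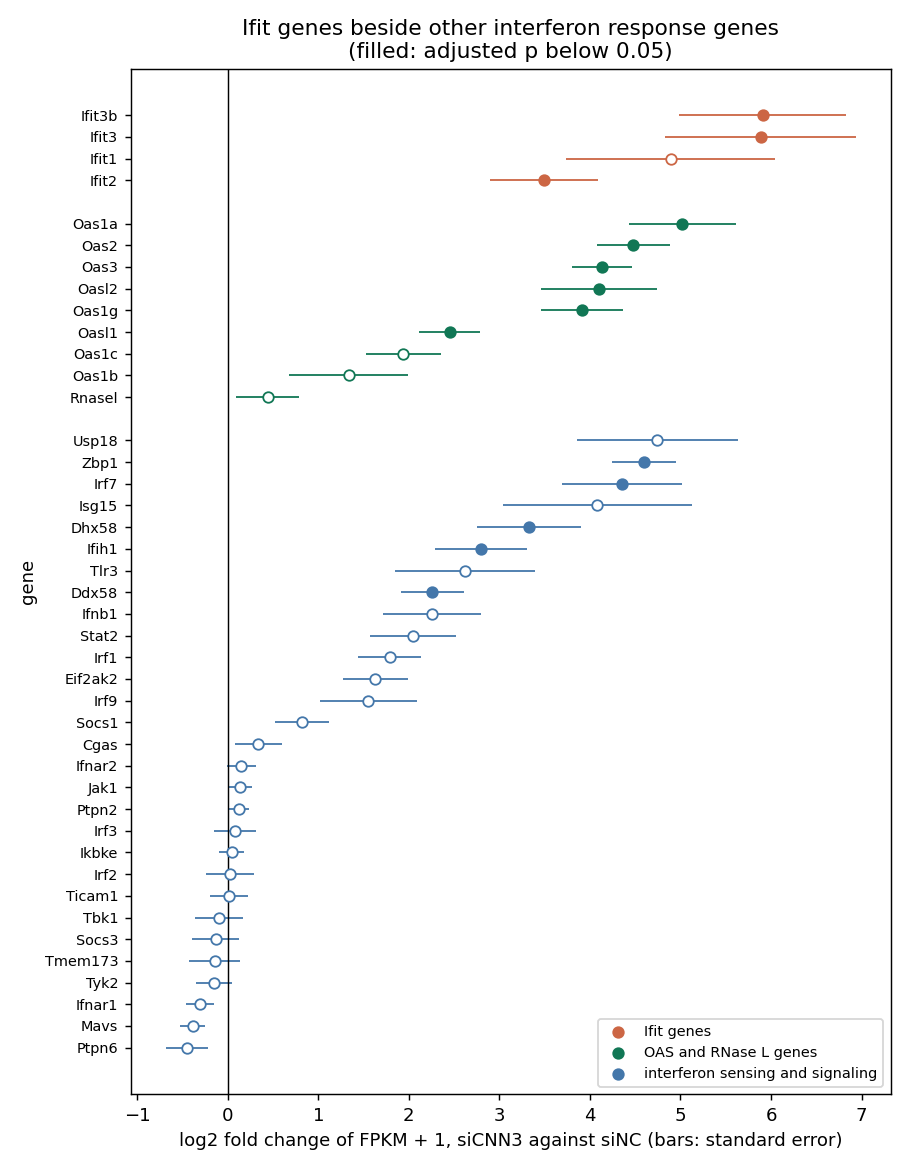
Log2 fold changes of FPKM + 1, siCNN3 against siNC, with standard errors as bars, for the 4 Ifit genes in orange, 9 OAS and RNase L genes in green and interferon sensing and signaling genes in blue, where filled points have an adjusted p below 0.05. The error bars of Ifit1 and Ifit3 exceed 1 log2 unit on each side, and those of OAS genes with siNC values under the pseudocount of 1, such as Oas3 (4.13), are narrowed by the scale.

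Because IFIT1 reads the RNA cap and IFIT proteins bind eIF3, 26 genes that make, read or remove the cap or belong to the initiation machinery were followed as well. Of these 1 rose and 0 fell by limma, or 3.85% called higher, near the 1.73% of all tested genes. Their median log2 fold change was 0.17, and the unadjusted p was below 0.05 for 6 higher genes and 0 lower ones, where 9.94% of all tested genes were higher at that level. The gene that rose was Dcp2, which removes the cap from RNA, at 4.85, 5.87 and 5.07 FPKM in siNC and 14.7, 13.8 and 12.0 FPKM in siCNN3 (log2 fold change 1.21, adjusted p = 0.0144, limma). It was called in 3 of the 6 fits with 1 library left out. Cmtr1, which adds the ribose methyl group by which IFIT1 tells cellular from viral caps, was at 9.71, 15.1 and 12.2 FPKM in siNC, against 30.9, 26.1 and 19.4 FPKM in siCNN3. All its siCNN3 libraries were above all its siNC libraries, but its log2 fold change of 0.99 was not called (adjusted p = 0.0829, limma). Eif3e and Eif3c, genes of eIF3 subunits, had log2 fold changes of -0.12 and 0.38 (adjusted p = 0.722 and 0.282, limma).

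The genes around the family on chromosome 19 did not pass the test. Within 500 kb of the span of the 4 members, 10 other genes had values and 8 were tested, of which 0 were called by limma, while 3 were higher and 2 lower at an unadjusted p below 0.05. Of all tested genes 1.73% were called higher and 0.336% lower, and 9.94% were higher and 6.14% lower at an unadjusted p below 0.05. Ifit1bl1, which lies between Ifit3 and Ifit3b on the other strand and shares stretches with Ifit1, was at 0.139, 0.167 and 0.336 FPKM in siNC, against 7.02, 5.59 and 0.737 FPKM in siCNN3. The groups did not overlap and siCNN3 replicate 3 was far below the other siCNN3 libraries, and the log2 fold change of 1.90 was not called (adjusted p = 0.150, limma). Ifit1bl1 averaged 0.214 FPKM in siNC and passed the filter only through siCNN3, so it could only come out higher. It is among the 3 neighbours counted as higher. Ch25h, an enzyme gene that responds to interferon, changed by 1.06 on the log2 scale (adjusted p = 0.226, limma), and Lipa, the lysosomal lipase gene next to Ifit2, by -0.44 (adjusted p = 0.186, limma). Stambpl1, Acta2, Fas, Pank1 and Kif20b had log2 fold changes of 0.68, -0.77, -0.19, -0.27 and 0.04, with adjusted p from 0.0836 to 0.966 (limma). The median over the 8 neighbours was -0.08.

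**Figure D5:**
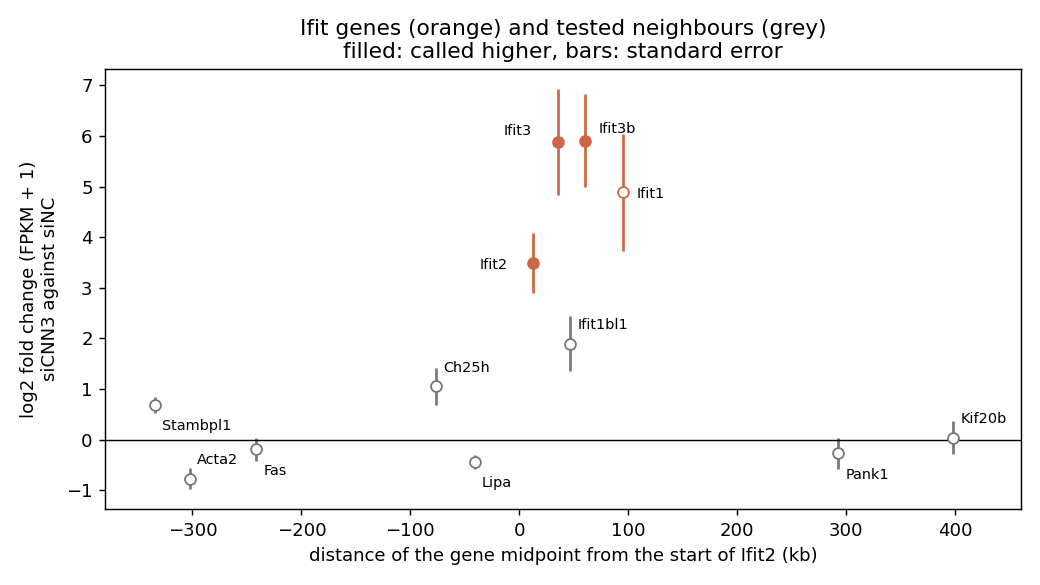
Log2 fold change of FPKM + 1, siCNN3 against siNC, by distance of the gene midpoint from the start of Ifit2 in kb, for the 4 Ifit genes in orange and 8 tested neighbours in grey, with standard errors as bars and filled points for called genes. The Ifit genes stand between 3.49 and 5.91, Ifit1bl1 inside the cluster is at 1.90, and the genes on both sides are between -0.77 and 1.06.

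Markers of other cell types were looked up in the same libraries. Of 9 leukocyte and macrophage markers only Cd68 and Lyz2 had values, at a sum of 4.72 to 10.2 FPKM in siNC and 2.81 to 4.04 FPKM in siCNN3. Neither was called (adjusted p = 0.312 and 0.342, limma). Lyz2 was at 4.80, 1.65 and 1.13 FPKM in siNC, so siNC replicate 1 stood apart. Of 3 markers of plasmacytoid dendritic cells only Bst2 had values, a gene that also responds to interferon in other cells, at 26.4 to 129.2 FPKM in siNC and 620.0 to 661.3 FPKM in siCNN3. None of the endothelial markers Pecam1, Cdh5 and Kdr had a value.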

How the data were processed

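RNA-seq libraries of C2C12 cells, 3 with NC siRNA and 3 with CNN3 siRNA, were compared by the treatment given in the labels. The authors deposited FPKM for 24023 Ensembl transcripts per library. Per the labels, Bowtie 0.12.2 and the builds mm8 and mm10 were used, with no role given to either build. The annotation, read numbers and the program behind the FPKM are not given in the sources used here. A wrong division of fragments between near-identical genes would move their FPKM, and depth cannot be weighed.

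Identifiers without their version matched 23949 transcripts of GENCODE annotation of GRCm38. The other 74, with 0.159% to 0.220% of the FPKM of a library, were left out. FPKM were summed by gene symbol into 11835 genes. Log2(FPKM + 1) of the 11593 genes averaging 0.5 FPKM or more was fitted with limma 3.58.1 in R 4.3.3 (trend, Benjamini-Hochberg adjustment, threshold 0.05), and 21658 transcripts likewise. The fit was tested on simulated data. Exact permutation tests used scipy 1.17.1 in Python 3.11.15 with pandas 2.3.3 and numpy 2.4.6, and alignments biopython 1.88. R read the files with version 1.17.8 of data.table, and plots came from matplotlib 3.10.9.

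Besides the members and Cnn3, genes were named as the called genes with the 5 largest changes of each list, as Stat2, Irf9, Irf7, Ifnb1, Cmtr1, Eif3e and Eif3c, as tested neighbours within 500 kb, and as the 5 genes with the highest correlation to the members. A gene that this rule names is not reported here. Ddx58, Mavs, Isg15, Ifnar1, Ifnar2, Jak1 and Tyk2 were named after their values were seen. The members, lists and tests were chosen with earlier results of these data known. Alternatives were a pseudocount of 0.1, quantile normalization, median-of-ratios scaling, no filter or one at 5 FPKM, a replicate block, each library left out, limma without trend, each gene's own variance, single transcripts, summed Ifit3 and Ifit3b, a window of 1000 kb and other motif forms.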

Additional observations from a re-analysis of the deposited data

How the results depend on the processing

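All log2 fold changes of the members stayed positive in every alternative run. With all 6 libraries, 3 members were called under median-of-ratios scaling, quantile normalization and either filter. With each gene's own variance, an ordinary t-test, 0 were called (adjusted p = 0.194 for Ifit2 at 3.49, 0.199 for Ifit3 at 5.88 and 0.177 for Ifit3b at 5.91). In that t-test 0 of all 11593 genes were called, although all 4 members had an unadjusted p below 0.05. Ifit3 was also lost with a pseudocount of 0.1 (6.07, adjusted p = 0.0545) and without the trend (5.88, adjusted p = 0.0548). Tested alone, Ifit2-201 (3.56), Ifit2-202 (0.39), Ifit3-201 (5.88) and Ifit3b-201 (5.91) were not called. Leaving out 1 library gave 0 to 3 members called and log2 fold changes of 3.73 to 6.09 for Ifit1, 3.12 to 4.15 for Ifit2, 4.80 to 7.14 for Ifit3 and 5.01 to 7.02 for Ifit3b. It gave 1 to 10 sensing and signaling genes called higher (3 with a pseudocount of 0.1), 0 to 3 cap and initiation genes, and 1 to 7 OAS and RNase L genes. The difference in the share of Ifit1 ran from -6.65 to 2.63 percentage points, against -1.19 with all libraries, so its sign was not stable, and that in log2 change between Ifit3 and Ifit3b from -0.21 to 0.12. Fits with 1 library left out have fewer libraries, and otherwise the cause was not tested. Median-of-ratios scaling leaves shares within a library as they are and gave no new value for them. The median of all genes moved by under 0.1 under every scaling (from 0.03 to -0.003 and -0.045).

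The labels number the replicates 1 to 3 in both groups without saying what a number stands for. Deviations from the group means correlated at -0.278, 0.314 and -0.0247 for the same numbers. For unlike numbers they ran from -0.445 to 0.442. With 3 libraries a group such values cannot tell paired from unpaired libraries. As the labels state no pairing, the samples were not taken as pairs. With the replicate block, 0 members were called (Ifit1 4.89, Ifit2 3.49, Ifit3 5.88 and Ifit3b 5.91, adjusted p = 0.126, 0.0621, 0.0678 and 0.0533), and 62 genes in all were called higher and 6 lower, against 200 and 39 without it. It left 2 sensing and signaling genes and 5 OAS and RNase L genes called higher, the latter an alternative added after the data were seen. Read numbers are unknown, so what depth limits could not be stated.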

Other observations

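Not every interferon response gene followed the Ifit genes in siCNN3 replicate 3. Chosen after their values were seen, Oasl2 was at 78.8, 80.8 and 118.3 FPKM in siCNN3 replicates 1, 2 and 3, so that replicate 3 was at 148.3% of the mean of replicates 1 and 2, where Ifit1 was at 26.0% and Ifit2 at 24.9%. Irf1, the gene of a transcription factor that also answers to interferon gamma, was at 40.6, 39.8 and 62.9 FPKM in the same libraries, or 156.4%. Ddx58 was at 31.2, 37.7 and 33.1 FPKM, or 95.9%, and Tlr3, the gene of the endosomal RNA sensor, at 32.7, 24.1 and 3.93 FPKM, or 13.8%. These are values of single libraries and were not tested.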
